A study of Mus musculus with 16 samples.

Results

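The V1 sector is the cytosolic portion of the vacuolar H+-ATPase (V-ATPase), the proton pump of lysosomes and of the ruffled border with which osteoclasts acidify bone. It was followed here through 8 subunit genes, Atp6v1a, Atp6v1b2, Atp6v1c1, Atp6v1d, Atp6v1e1, Atp6v1f, Atp6v1g1 and Atp6v1h, out of 22180 genes that have an array row assigned to 1 gene symbol. The 8 genes had 11 such rows, and for each gene the row with the highest mean over the 16 arrays was used. All 8 passed the filter on low values, which left 15526 genes to test.

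Bone marrow-derived macrophages of male C57BL/6 mice aged 5 weeks were cultured with macrophage colony-stimulating factor (M-CSF) in every group, and the cytokine RANKL was added to turn them into osteoclasts. At 0 h, 2 arrays had M-CSF and DW, the control treatment as labelled, without RANKL. With M-CSF, RANKL and DW there was 1 array each at 3, 6, 12, 24, 48 and 72 h, and with M-CSF, RANKL and 1 mM dimethyl α-ketoglutarate (αKG), the ester of a tricarboxylic acid cycle intermediate, 1 array each at 0.5, 1, 3, 6, 12, 24, 48 and 72 h. The phase in the labels joins neighbouring times into groups of 2 arrays, named fast for 0.5 and 1 h, early for 3 and 6 h, intermediate for 12 and 24 h, and late for 48 and 72 h. The question of the series was how αKG acts on osteoclast formation. Whether arrays stand for separate cultures or mice is not in the labels, so p-values reflect the spread among these 16 arrays alone, which can be technical. In tests against 0 h that spread includes time within a phase. In tests of αKG against DW, on 12 arrays with time as a block, it is the spread of the difference between the arms from time to time.

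In the V1 sector, A and B subunits alternate in a ring that hydrolyses ATP, D and F form the central stalk that turns inside the ring, E and G form the outer stalks, and C and H hold those stalks to the membrane-bound V0 sector. The sector can detach from V0, which stops proton pumping. Several V1 subunits exist as isoforms, and the members here are the widely expressed ones, with B2 the B subunit known from osteoclasts and B1 the form known from kidney and inner ear.

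The markers of the labelled cells were present. The mean over 8 macrophage markers lay at 10.4 to 10.5 log2 at 0 h, 9.38 to 10.1 in late DW arrays and 9.93 to 10.2 in late αKG arrays. That over 8 osteoclast markers lay at 5.30 to 5.31 log2 at 0 h, 9.32 to 11.1 in late DW arrays and 7.57 to 9.09 in late αKG arrays. The mean over 8 neutrophil markers, cells that bone marrow cultures can carry, lay at 7.86 to 7.91 log2 at 0 h, 5.06 to 5.42 in late DW and 5.14 to 5.84 in late αKG arrays. Measured markers of B cells (3 of 4, 2 tested) lay at 3.64 to 5.07 log2, and those of T and NK cells (5 of 5, 2 tested) at 3.41 to 6.01. Those of stromal cells and osteoblasts (5 of 6, 4 tested) lay at 2.51 to 7.30, and that of the erythroid lineage (1 of 4, 1 tested) at 5.41 to 5.68. The tested ones gave no call in late DW or for αKG in late arrays (limma), with Cd79a and Col1a1 at an unadjusted p under 0.05. The rest did not pass the filter and could not be called. Of all genes tested, 3.34% rose and 3.3% fell in late DW, and 2.18% fell and 2.09% rose with αKG in late arrays. The part of these marker shifts in the results was not tested, and in bulk RNA fewer cells of a type and less RNA per cell cannot be told apart. The array with the lowest mean correlation with the others was DW at 72 h (0.928, against 0.960 or more for each of the other 15). Late DW values without it are given beside the results, as effect sizes only, since 1 late DW array is then left.

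RefSeq's promoter table (GRCm38.p6) held 4 of the 8 members, Atp6v1a, Atp6v1d, Atp6v1e1 and Atp6v1f; Atp6v1b2, Atp6v1c1, Atp6v1g1 and Atp6v1h had no entry. The 250 bases before each start are shown because all 4 stood above 0 h in both late DW arrays, although only Atp6v1e1 passed the test, and because V-ATPase genes are textbook targets of the MiT transcription factors (Mitf, Tfeb, Tfe3 and Tfec), which bind E-boxes. Capitals mark matches to the motifs searched.
Atp6v1a, chr16:44139260-44139509, minus strand: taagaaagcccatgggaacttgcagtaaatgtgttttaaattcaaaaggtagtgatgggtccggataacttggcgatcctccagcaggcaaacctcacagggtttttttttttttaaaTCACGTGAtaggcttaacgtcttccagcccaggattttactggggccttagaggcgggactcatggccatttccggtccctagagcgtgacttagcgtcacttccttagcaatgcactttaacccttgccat
Atp6v1d, chr12:78861639-78861888, minus strand: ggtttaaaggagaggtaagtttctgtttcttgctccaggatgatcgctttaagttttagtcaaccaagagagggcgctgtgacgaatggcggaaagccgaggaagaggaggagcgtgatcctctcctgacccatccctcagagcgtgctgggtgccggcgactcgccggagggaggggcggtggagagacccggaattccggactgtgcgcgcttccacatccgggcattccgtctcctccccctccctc
Atp6v1e1, chr6:120822699-120822948, minus strand: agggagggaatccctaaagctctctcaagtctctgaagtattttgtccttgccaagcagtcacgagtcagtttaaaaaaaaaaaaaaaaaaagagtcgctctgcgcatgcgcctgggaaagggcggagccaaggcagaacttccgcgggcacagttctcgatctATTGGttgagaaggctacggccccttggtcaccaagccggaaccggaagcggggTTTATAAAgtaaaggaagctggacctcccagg
Atp6v1f, chr6:29467533-29467782, plus strand: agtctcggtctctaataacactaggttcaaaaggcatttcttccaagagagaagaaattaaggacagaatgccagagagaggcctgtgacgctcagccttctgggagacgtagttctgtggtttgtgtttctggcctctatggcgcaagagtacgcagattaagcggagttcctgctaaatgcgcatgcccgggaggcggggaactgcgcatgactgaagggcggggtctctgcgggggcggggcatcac

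The motifs were searched on both strands. The E-box CACGTG was present in Atp6v1a alone among the 4, at positions -131 to -126 from the start, and in 6.02% of all 32851 promoter windows of this length. There it lay within TCACGTGA, the form of the E-box with the flanks that MiT factors favour, which 0.785% of all windows held. The longer CLEAR motif (0.24% of windows), the M-box TCATGTG (3.25%) and the AP-1 site TGAGTCA (4.46%) were in none of these 4 windows. Atp6v1e1 held a CCAAT box on the minus strand at -86 to -82 (33.8% of windows) and overlapping matches to TATAAA on both strands at -32 to -25 (12.4% of windows). The windows of Atp6v1d and Atp6v1f held none of the 7 motifs. They were the richest in G and C of the 4, at 59.6% and 54.4%, against 46.4% in Atp6v1a, 51.2% in Atp6v1e1 and a median of 52.4% over all windows. A match is a description of these letters only.

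Through the first day of RANKL the V1 genes gave no calls in either arm. So small a part of all genes was called there that 0 of 8 is near the share in each comparison. Against 0 h, 0 of 8 passed the test in early DW arrays (0.341% of all genes did), 0 of 8 in intermediate DW arrays (0.779%), 0 of 8 in the fast αKG arrays (0% of all genes, with 540 at an unadjusted p under 0.05), 0 of 8 in early αKG arrays (0.502%) and 0 of 8 in intermediate αKG arrays (0.67%). Calls here and below are limma tests with a Benjamini-Hochberg adjusted p under 0.05 over all 15526 genes, and in these 5 comparisons no member had even an unadjusted p under 0.05. The members' median change from 0 h lay between -0.00 and 0.24 log2 at every time up to 24 h in both arms. The precision leaves room for moderate changes: for Atp6v1b2 the early DW change was 0.09 log2 with a 95% interval from -0.23 to 0.41, and for Atp6v1d it was -0.05 with an interval from -0.76 to 0.66. The 2 arrays at 0 h differed by 0.01 to 0.16 log2 in the 8 genes.

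**Figure D1:**
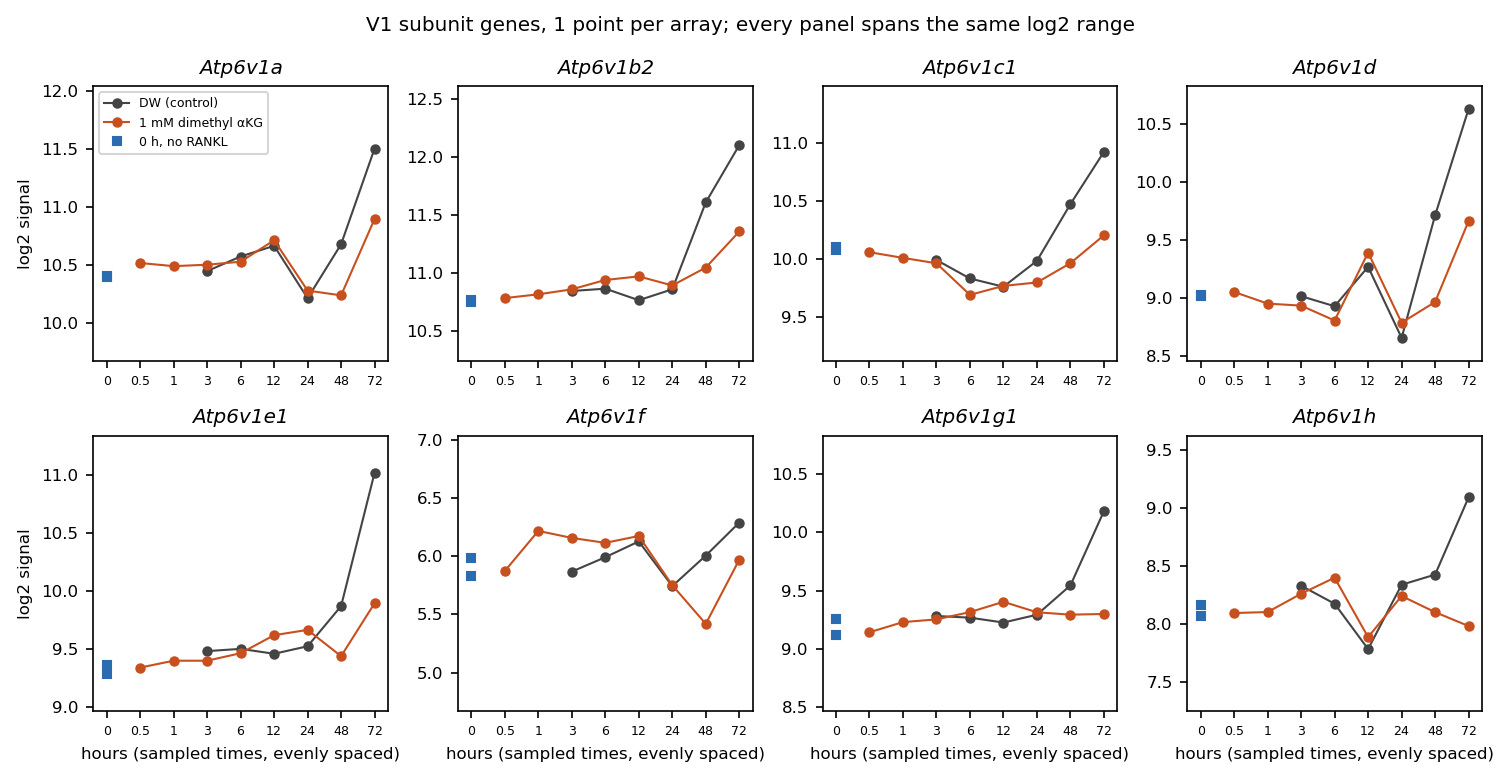
Log2 signal of the 8 V1 subunit genes (vertical axis; every panel spans the same range) on each of the 16 arrays, at the sampled hours spaced evenly (horizontal axis); squares are the 2 arrays at 0 h without RANKL, dark points the DW arm and orange points the αKG arm, 1 array each. The DW array at 72 h is the highest of the 16 in all 8 panels.

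After 24 h the genes parted by arm. At 48 h in DW all 8 stood above their 0 h mean, by a median of 0.37 log2, and at 72 h by a median of 1.05 (range 0.38 to 1.69), while the median over all genes was 0.02 and -0.01. With αKG the members' median was -0.04 at 48 h, with 3 of 8 above 0 h, and 0.31 at 72 h, with 7 of 8 above. In late DW arrays 4 of 8 rose and 0 fell against 0 h (3.34% of all genes tested rose and 3.3% fell), with a median of 0.69 log2 over the members and -0.00 over all genes. Both late DW arrays lay above both 0 h arrays for 8 of 8 members, as they did for 25.1% of all genes. In late αKG arrays 0 of 8 passed against 0 h (1.43% of all genes did in either direction), with 1 of 8, Atp6v1b2, at an unadjusted p under 0.05, and the median was 0.14 log2. Both comparisons use the same 0 h arrays. Effects of RANKL and of hours in culture cannot be told apart, since the arrays without RANKL are those at 0 h. In the αKG arm the change from 0 h also includes any effect of αKG, since the 0 h arrays had DW.

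Of the ring genes, Atp6v1b2 had the smallest p of the 8 members in late DW. It encodes the B2 subunit, which binds nucleotide beside the catalytic sites. It read 10.77 and 10.76 log2 at 0 h, then 10.85, 10.87, 10.77 and 10.86 in DW from 3 to 24 h, and 11.61 at 48 h and 12.10 at 72 h. With αKG it read 10.79 and 10.82 at 0.5 and 1 h, then 10.86, 10.94, 10.97 and 10.90 from 3 to 24 h, 11.05 at 48 h and 11.36 at 72 h. Both late DW values thus lay above every other array, and the αKG values at 48 and 72 h were the next highest. In late DW arrays it rose by 1.09 ± 0.15 log2 (SE, 2 arrays per group, adjusted p = 0.00158, limma), 2.13-fold (0.85 log2 without the 72 h array). With αKG it stood at 0.44 ± 0.15 above 0 h (adjusted p = 0.223, limma). A second row of the gene gave 1.42 ± 0.27 in late DW (adjusted p = 0.011, limma over all rows).

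Atp6v1a, the catalytic A subunit, had a more uneven course. It read 10.41 and 10.40 log2 at 0 h, and in DW 10.45, 10.58, 10.67 and 10.22 from 3 to 24 h, 10.68 at 48 h and 11.51 at 72 h. With αKG it read 10.52 and 10.49 in the first hour, 10.51, 10.53, 10.72 and 10.28 from 3 to 24 h, 10.24 at 48 h and 10.90 at 72 h. The DW value at 48 h lay between the 12 h values of the arms, and only the 72 h arrays of both arms stood clear of the rest. Its late DW value of 0.69 ± 0.27 did not pass (adjusted p = 0.172, limma), and it was 0.28 without the 72 h array and 1.10 without the 48 h array.

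The rows of the central stalk genes differed in signal level as well as in late change. Atp6v1d, subunit D, read 9.03 and 9.01 log2 at 0 h and 9.02, 8.93, 9.27 and 8.66 in DW from 3 to 24 h, then 9.71 and 10.63 at 48 and 72 h. With αKG it read 9.05 and 8.95 in the first hour, 8.94, 8.81, 9.39 and 8.79 from 3 to 24 h, and 8.97 and 9.66 at 48 and 72 h. The span over the 16 arrays, 1.97 log2, was the widest of the members. Its late DW value of 1.15 ± 0.32, the largest of the 8, missed the threshold (adjusted p = 0.0581, limma). It was 0.69 without the 72 h array and 1.61 without the 48 h array. Atp6v1f, subunit F, read 5.83 and 5.99 log2 at 0 h, 5.87, 5.99, 6.13 and 5.74 in DW from 3 to 24 h, and 6.01 and 6.29 at 48 and 72 h. In the αKG arm it read 5.87 and 6.22 in the first hour, 6.16, 6.12, 6.18 and 5.75 from 3 to 24 h, and 5.42 and 5.97 at 48 and 72 h, the 48 h array being the lowest of the 16. It had a late DW value of 0.24 ± 0.22 (adjusted p = 0.581, limma), the smallest of the 8, and 0.10 without the 72 h array. The late DW arrays of Atp6v1f barely cleared 0 h, and its span of 0.87 log2 over the 16 arrays was the narrowest. It was also the dimmest member, with a mean at percentile 61.2 of all genes. The other members lay between 87.4 (Atp6v1h) and 99.2 (Atp6v1b2). Whether the low signal narrowed its changes was not tested.

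Among the outer stalk genes, Atp6v1e1, subunit E1, read 9.37 and 9.29 log2 at 0 h, 9.48, 9.50, 9.46 and 9.52 in DW from 3 to 24 h, and 9.87 and 11.02 at 48 and 72 h. With αKG it read 9.34 and 9.40 in the first hour, 9.40, 9.46, 9.62 and 9.67 from 3 to 24 h, and 9.44 and 9.90 at 48 and 72 h. Most of its DW change fell in the last day, and the αKG value at 72 h was close to the DW value at 48 h. It rose by 1.12 ± 0.28 log2 in late DW (adjusted p = 0.0361, limma), but without the 72 h array the value was 0.54. Atp6v1g1, subunit G1, read 9.11 and 9.25 log2 at 0 h, 9.28, 9.27, 9.22 and 9.29 in DW from 3 to 24 h, 9.54 at 48 h and 10.18 at 72 h. With αKG all 8 arrays lay between 9.14 and 9.40, and the 48 and 72 h arrays, at 9.29 and 9.30, were no higher than at 12 h. It rose by 0.68 ± 0.17 in late DW (adjusted p = 0.0383, limma), against 0.36 without the 72 h array. Its other 2 rows, dimmer ones, gave 0.49 ± 0.28 and 0.65 ± 0.29 and did not pass (adjusted p = 0.365 and 0.224), nor did the mean of the 3 rows (adjusted p = 0.183).

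Atp6v1c1 encodes subunit C1, one of the collar subunits between the stalks and V0. It read 10.10 and 10.08 log2 at 0 h and 9.99, 9.83, 9.76 and 9.98 in DW from 3 to 24 h, below 0 h at each of these times, then 10.47 and 10.92 at 48 and 72 h. With αKG it read 10.06 and 10.01 in the first hour, 9.96, 9.69, 9.77 and 9.80 from 3 to 24 h, and 9.96 and 10.21 at 48 and 72 h, so that only the last αKG array exceeded 0 h. The dip had no call (-0.22 ± 0.16 in intermediate DW, adjusted p = 0.834, limma). The late DW rise was 0.61 ± 0.16 (adjusted p = 0.0466, limma), against 0.38 without the 72 h array. The rise missed the threshold with no filter on low values (adjusted p = 0.0628) or with arrays centred on their medians (adjusted p = 0.069). Atp6v1h, subunit H, which is needed for pump activity, read 8.16 and 8.07 log2 at 0 h, 8.33, 8.17, 7.78 and 8.34 in DW from 3 to 24 h, and 8.42 and 9.09 at 48 and 72 h. In the αKG arm it read 8.09 and 8.10 in the first hour, 8.26, 8.40, 7.88 and 8.24 from 3 to 24 h, and 8.10 and 7.98 at 48 and 72 h. The 12 h arrays of both arms were its lowest. It was the one member lower at 72 h than at 48 h with αKG, while 8 of 8 were higher at 72 h in DW. Its late DW value of 0.64 ± 0.23 did not pass (adjusted p = 0.135, limma), and was 0.31 without the 72 h array and 0.97 without the 48 h array.

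The late DW change leaned on the 72 h array. Leaving out 1 array of the late DW or 0 h group leaves 1 array there, with the spread taken from the other groups. Such fits are given by effect size only. The members' median late DW change was 0.69 log2 with all arrays, 1.05 without the 48 h array and 0.37 without the 72 h array. It was 0.69 without the first 0 h array and 0.72 without the second. With only the 2 groups compared in the fit, 0 of 8 passed. There 62 of all genes were higher, against 519 in the fit of all arrays.

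The direct comparison of the arms used the 12 arrays at the 6 times that both hold, with time as a block. In late arrays 5 of 8 V1 genes fell with αKG and 0 rose (2.18% of all genes tested fell and 2.09% rose), with a median difference of -0.63 log2 over the members and 0.01 over all genes. Atp6v1d fell by 0.86 ± 0.09 log2 (adjusted p = 0.003, limma), to 55.2% of the DW level. Atp6v1e1 fell by 0.78 ± 0.14 (adjusted p = 0.0183), to 58.3%, and Atp6v1b2 by 0.65 ± 0.08 (adjusted p = 0.00366), to 63.6%. Atp6v1c1 fell by 0.61 ± 0.09 (adjusted p = 0.00844) and Atp6v1a by 0.52 ± 0.07 (adjusted p = 0.00743). The remaining 3 lay just outside the threshold: Atp6v1g1 at -0.57 ± 0.14 (adjusted p = 0.0524), Atp6v1h at -0.72 ± 0.17 (adjusted p = 0.0526) and Atp6v1f at -0.45 ± 0.13 (adjusted p = 0.0864). All 8 had an unadjusted p under 0.05. The second row of Atp6v1b2 gave -0.98 ± 0.14 (adjusted p = 0.00715), and the other 2 rows of Atp6v1g1 gave -0.76 ± 0.25 and -0.78 ± 0.25 (adjusted p = 0.141 and 0.126).

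Array by array, 8 of 8 members were lower with αKG at both 48 and 72 h, as were 28.8% of all genes. Both late DW arrays exceeded both late αKG arrays for 6 of 8 members, against 14.9% of all genes, and the 2 exceptions were Atp6v1a and Atp6v1e1, whose αKG value at 72 h passed the DW value at 48 h. At 48 h the difference was largest in Atp6v1d (-0.75 log2), Atp6v1f (-0.59) and Atp6v1b2 (-0.56), and smallest in Atp6v1g1 (-0.25). At 72 h it was largest in Atp6v1e1 (-1.12), Atp6v1h (-1.11) and Atp6v1d (-0.97) and smallest in Atp6v1f (-0.32). The difference grew from 48 to 72 h in all members but Atp6v1f. Without the time block 0 of 8 passed, at the same differences. That fit has no term for time, so its spread includes the step between the 2 times of a phase. The call for Atp6v1e1 was lost without any 1 of the pairs at 3, 6, 12 or 24 h (limma, adjusted p = 0.0528 to 0.0602 at the same difference). Leaving out the 48 h or the 72 h pair leaves 1 late pair, with the spread taken from the other phases, so only differences are given. Without the 48 h pair Atp6v1g1 stood at -0.89 and Atp6v1h at -1.11, the 72 h difference alone. Without the 72 h pair these 2 stood at -0.25 and -0.32, and Atp6v1e1 at -0.43. The other 4 genes called with all pairs stood there at -0.44 (Atp6v1a), -0.56 (Atp6v1b2), -0.51 (Atp6v1c1) and -0.75 (Atp6v1d). The late osteoclast markers moved the same way (8 of 8 fell with αKG, median -2.01 log2), while 2 of 8 macrophage markers and 1 of 8 neutrophil markers rose (medians 0.27 and 0.20); their part in the V1 differences was not tested.

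**Figure D2:**
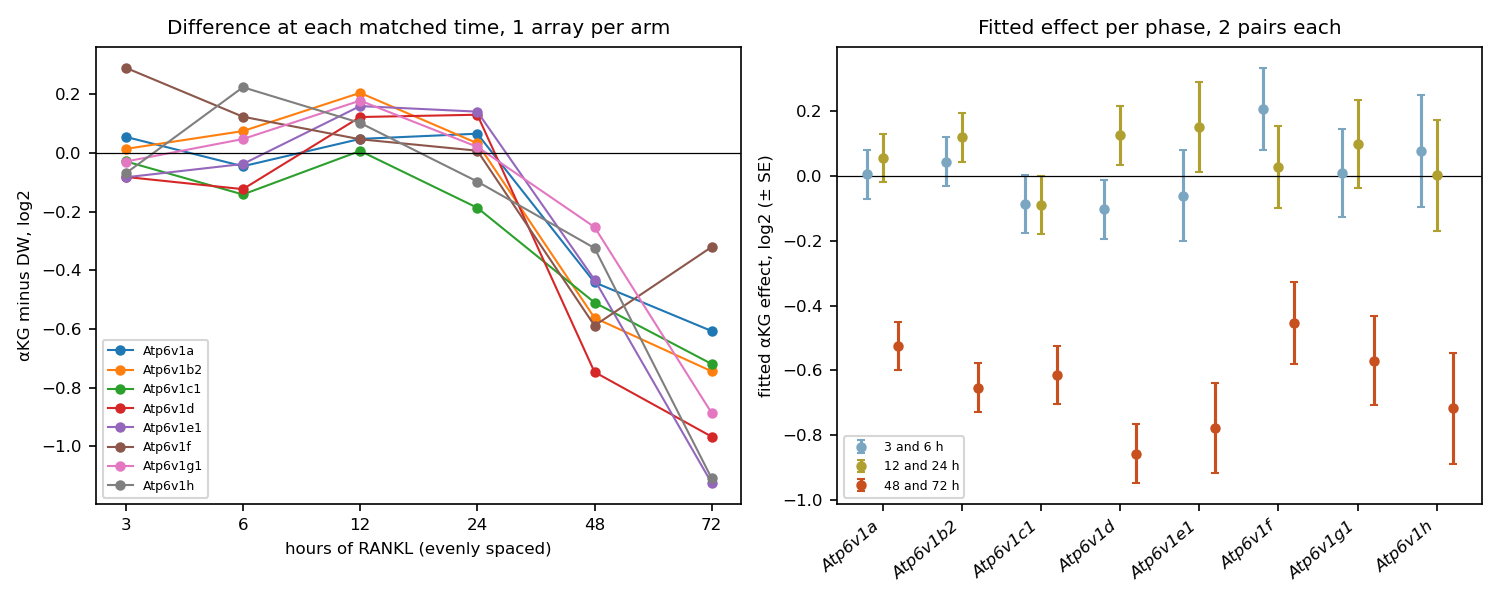
Left, αKG minus DW in log2 (vertical axis) for each V1 gene at the 6 matched times (hours on the horizontal axis, evenly spaced), 1 array per arm; right, the fitted αKG effect per phase with its standard error, each from 2 matched pairs, for each gene. The lines stay between -0.19 and 0.29 up to 24 h and all lie below 0 at 48 and 72 h.

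Before 48 h no V1 gene was called between the arms. With αKG 0 of 8 passed in early arrays (0.161% of all genes did) and 0 of 8 in intermediate arrays (0.0966%), which is near these shares. No member had an unadjusted p under 0.05 in either (limma). At 12 h all 8 were above the DW value, by 0.01 to 0.21 log2, where 47.9% of all genes were below it. The early effect on Atp6v1a was 0.01 ± 0.07 with a 95% interval from -0.16 to 0.17, and on Atp6v1b2 0.04 ± 0.08 with an interval from -0.13 to 0.21. The early interval was widest for Atp6v1h (-0.31 to 0.47). Early and late effects are compared directly in the next paragraph. Averaged over the 6 times, 0 of 8 passed (0.399% of all genes did), although all 8 values were negative, from -0.28 to -0.07, with 1 of 8, Atp6v1c1, at an unadjusted p under 0.05.

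The change of the αKG effect from early to late was tested as a contrast of its own. It passed for Atp6v1b2 (-0.70 ± 0.11 log2, adjusted p = 0.0359, limma) and Atp6v1d (-0.75 ± 0.13, adjusted p = 0.0478), 2 of 8, against 0.258% of all genes in this direction. The other members had values from -0.53 to -0.79 and did not pass, Atp6v1a being the nearest (adjusted p = 0.0645). Leaving out any 1 of the pairs at 3, 6, 12 or 24 h took the count to 0, leaving out the 72 h pair to 1, and leaving out the 48 h pair raised it to 7. Of all genes, 40 were lower with all pairs, 1 when the 3 h or the 6 h pair was dropped, 18 when it was the 12 h or the 24 h pair, 45 for the 72 h pair and 581 for the 48 h pair.

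The step between 12 and 24 h set the members apart in a way that both arms shared. Atp6v1d went down by 0.61 log2 in DW and by 0.60 with αKG, Atp6v1a by 0.45 and 0.43, and Atp6v1f by 0.39 and 0.42, while Atp6v1h went up by 0.55 and 0.35. The other 4, Atp6v1b2, Atp6v1c1, Atp6v1e1 and Atp6v1g1, moved by less than 0.3 in both arms. A step of at least 0.3 log2 the same way in both arms was seen in 26.1% of all genes, so such steps were common; among the members it was 4 of 8. The rule was set after these values were seen and is given without a test. From 48 to 72 h the arms differed more: Atp6v1e1 stepped up by 1.15 in DW and 0.46 with αKG, Atp6v1g1 by 0.64 and 0.01, and Atp6v1h by 0.67 and -0.12, whereas Atp6v1f stepped by 0.28 in DW and 0.55 with αKG.

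**Figure D3:**
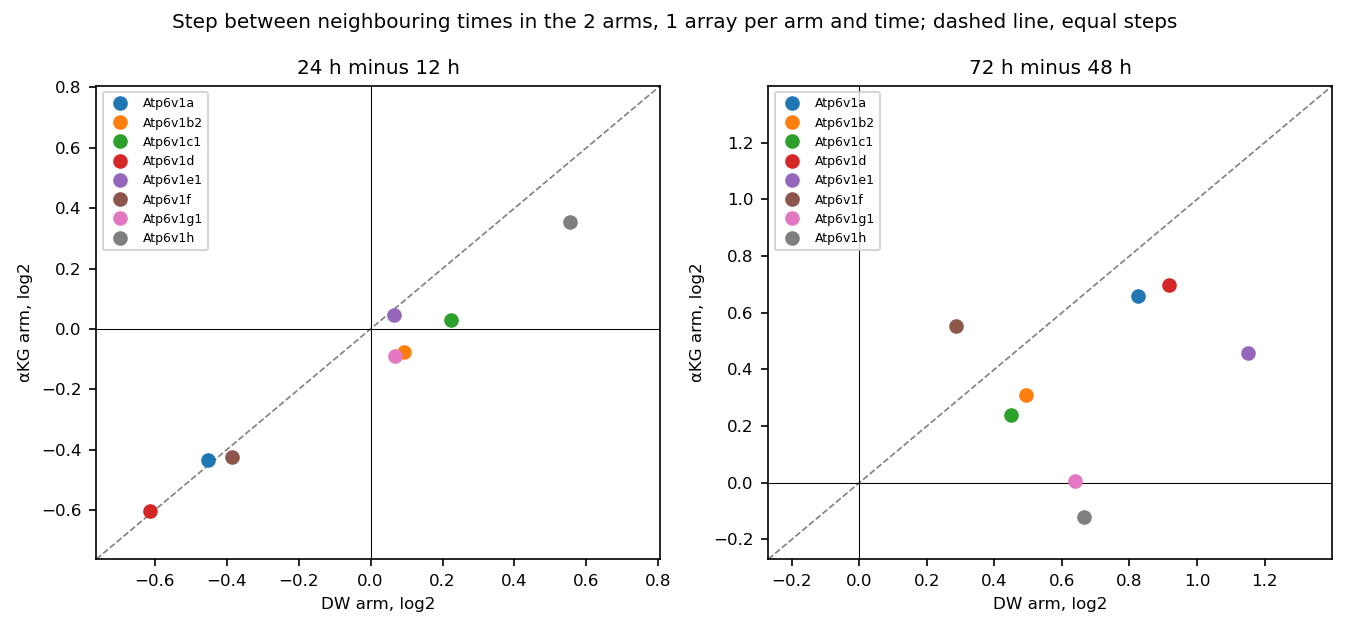
Step in log2 signal between neighbouring times for each V1 gene, in the DW arm (horizontal axis) and the αKG arm (vertical axis), from 12 to 24 h on the left and from 48 to 72 h on the right; 1 array per arm and time, and the dashed line marks equal steps. Atp6v1a, Atp6v1d, Atp6v1f and Atp6v1h lie farthest from 0 on the left, and all genes but Atp6v1f lie below the line on the right.

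Over the 16 arrays the members' profiles correlated at a median r of 0.79 over 28 pairs, from 0.20 (Atp6v1f with Atp6v1h) to 0.95 (Atp6v1e1 with Atp6v1g1). Without the DW array at 72 h the median was 0.29 and the range -0.39 to 0.86, with Atp6v1b2 and Atp6v1e1 the highest pair, so the likeness leaned on that array. These points share arrays and the time course and are a description. The genes outside the V-ATPase whose profile was most like the mean of the 8 members over the 16 arrays were Pheta1 (r = 0.98), Siglec15, a lectin receptor of osteoclasts (0.97), Fkbp9 (0.97), Snx10 (0.96), the calcitonin receptor Calcr (0.96), Rab38 (0.96), Steap4 (0.96), the anion exchanger Slc4a2 (0.96), Gfpt1 (0.96) and Denn2b (0.96). Without the DW array at 72 h their correlations were 0.80 to 0.92.

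The other genes of the pump and of acid secretion gave the setting. Of 11 tested V0 and accessory genes (13 listed, 12 measured), 5 rose and 1 fell in late DW arrays, with a median of 0.09 log2. Of all genes 3.34% rose and 3.3% fell there. The osteoclast form of subunit d, Atp6v0d2, rose by 6.07 ± 0.58 (limma), Atp6v0e by 0.78 ± 0.14 and Atp6v0b by 0.75 ± 0.14, and the a1 subunit Atp6v0a1 fell by 1.13 ± 0.15. Another a subunit gene, Tcirg1, went the other way. It read 10.07 and 10.17 log2 at 0 h, 10.53 and 11.12 in late DW, and 10.22 and 10.48 in late αKG arrays. In late arrays 4 of 11 fell with αKG (2.18% of all genes did), such as Atp6ap2 (-0.44 ± 0.07) and Atp6v0e (-0.59 ± 0.10). Beside them, all 8 V1 values were positive in late DW, from 0.24 to 1.15. The lists are built differently. The V1 members are the widely expressed isoforms, with the others in a list of their own. The V0 list keeps isoforms such as Atp6v0a1, Atp6v0a2 and Atp6v0e2 together with accessory genes. The difference between the lists was not tested. Of 8 acid secretion partners 4 rose in late DW and 4 fell with αKG, with medians of 0.73 and -0.57: Car2, which supplies protons (6.02 and -2.05), the sorting nexin Snx10 (1.74 and -1.04), Slc4a2, which exports bicarbonate (1.60 and -1.17), and the chloride channel gene Clcn7 (1.20 and -0.75).

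Isoform genes of the same subunits in other tissues gave no calls. Of 5 such genes (Atp6v1b1, Atp6v1c2, Atp6v1e2, Atp6v1g2 and Atp6v1g3), 3 passed the filter and 0 of 3 were called in late DW or for αKG in late arrays. With 3.34% of all genes rising and 3.3% falling in late DW, 0 of 3 is near that share. The same holds for αKG in late arrays (2.09% rose and 2.18% fell). Atp6v1c2 and Atp6v1g3 did not pass the filter level of 4.34 log2. Atp6v1b1, the kidney form of B, stayed between 4.45 and 5.15 log2 on all 16 arrays, close to the array medians of 4.84 to 4.93. Whether so low a signal could show a change was not tested. Atp6v1e2 had the largest late DW value (0.40 ± 0.13, adjusted p = 0.0924, limma), the one with an unadjusted p under 0.05.

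Factors that assemble or regulate the pump, and the MiT factors, gave no calls in late DW arrays. Of all genes 3.34% rose and 3.3% fell there, so 0 calls in lists this small is near that share. Of 12 tested assembly and regulation genes 0 passed in late DW and 1 had an unadjusted p under 0.05, with Oxr1, a TLDc protein, at 0.77 ± 0.25 (adjusted p = 0.0942, limma) and Dmxl1, of the complex that joins V1 to V0, at 0.50 ± 0.26 (adjusted p = 0.302). With αKG both fell in late arrays, Oxr1 by 0.67 ± 0.11 (adjusted p = 0.011) and Dmxl1 by 0.66 ± 0.11 (adjusted p = 0.0149), the 2 of 12 that passed. In that comparison 2.18% of all genes fell and 2.09% rose. Of 8 MiT factor genes and their regulators 0 passed in either comparison, and 2 in late DW (Fnip2 and Mitf) and 1 for αKG (Tfec) had an unadjusted p under 0.05. In late DW Fnip2, a partner of folliculin, stood at -0.84 ± 0.26 (adjusted p = 0.0802, limma), Mitf at 0.39 ± 0.15 (adjusted p = 0.159) and Tfeb at 0.31 ± 0.21 (adjusted p = 0.444). For αKG in late arrays Tfec stood at -0.28 ± 0.10 (adjusted p = 0.178) and Mitf at -0.24 ± 0.12 (adjusted p = 0.321).

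Among lysosomal genes at large some were called. Of 22 tested hydrolase and membrane protein genes (25 listed) 2 rose and 0 fell in late DW. Of all genes 3.34% rose and 3.3% fell there. The 2 that rose were Npc2 (0.56 ± 0.13, limma) and Cd63 (0.60 ± 0.15), and the list's median was -0.14 log2. With αKG in late arrays 2 rose and 2 fell, where 2.09% of all genes rose and 2.18% fell. Ctsl, cathepsin L, stood at 0.63 ± 0.10 and Hexa, a subunit of hexosaminidase, at -0.47 ± 0.07, and the median was 0.05. The difference between this list and the V1 genes was not tested.

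**Figure D4:**
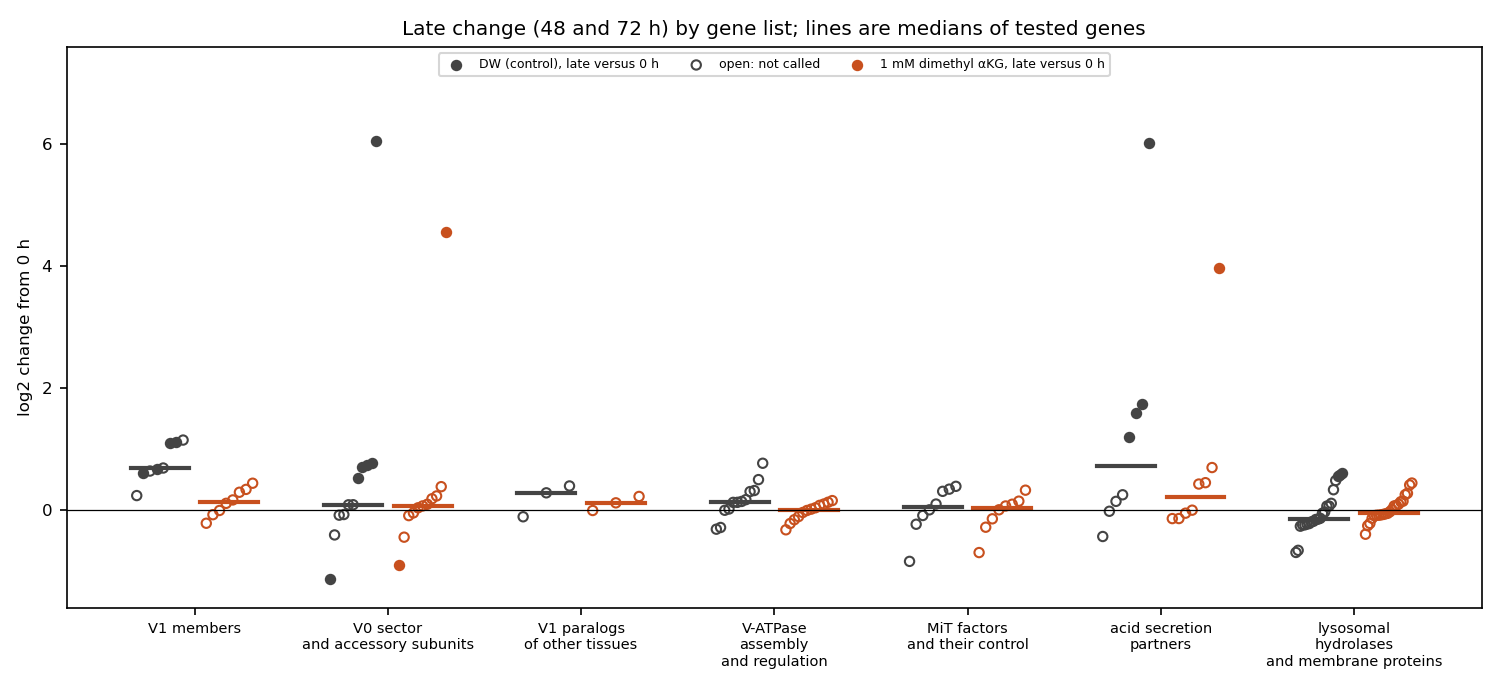
Log2 change from 0 h in late arrays (48 and 72 h, vertical axis) for every tested gene of 7 gene lists (horizontal axis), in the DW arm (dark) and the αKG arm (orange); filled points passed the limma test, open points did not, and bars are list medians. The V1 median is 0.69 in DW and 0.14 with αKG, and that of lysosomal genes is -0.14 and -0.04.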

How the data were processed

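RNA of 16 samples was hybridised to 1-colour arrays after biotin labelling of sense-strand cDNA, per the labels' protocols. The authors deposited 1 value per row and array, read here as log2 from the range of 0.61 to 13.25. Array medians of 4.84 to 4.93 show a normalization between arrays. The method, the summarisation, the background correction and the build were not given in the sources used here. Which values lie above background is therefore unknown, and precision is limited by 16 arrays.

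Of 33793 rows, 23521 had 1 gene symbol in the platform annotation, 1814 had several and 8458 are unnamed here. The 30% of genes with the lowest mean (4.34 log2 or less) were not tested. limma 3.58.1 (R 4.3.3) was used with an eBayes intensity trend and Benjamini-Hochberg adjustment. Changes from 0 h came from 1 model of all 8 groups (8 residual degrees of freedom), and αKG effects from the 12 time-matched arrays with a block for time, as 1 effect (5) or 1 per phase (3). Same-time arrays of the arms correlated at 0.50 to 0.75 in their deviations from the arm means. Values after ± are standard errors in log2 units. Both models were tested on simulated data.

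All 8 members are named. From other lists, up to 4 genes with the smallest p in late DW and up to 2 for αKG in late arrays are named. Besides these, the 10 most alike genes (predicted and clone-named genes skipped), Tcirg1 and isoforms that describe a list are named. The members and lists were chosen with earlier results of these data known. Alternatives covered filters, scalings, eBayes settings, row rules, smaller fits, no block, a slope on log2 time, and single arrays or pairs left out. Values of a gene's other rows were added after seeing the data.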

Additional observations from a re-analysis of the deposited data

Results flagged for a closer look

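For 2 genes the αKG effect differed between phases by a test of the difference itself. Atp6v1b2 had an early effect of 0.04 ± 0.08 log2 and a late one of -0.65 ± 0.08, a difference of -0.70 ± 0.11 (adjusted p = 0.0359, limma). Atp6v1d had -0.10 ± 0.09 and -0.86 ± 0.09, a difference of -0.75 ± 0.13 (adjusted p = 0.0478). In each gene the αKG value was lower at both 48 and 72 h, as it was in 8 of 8 members and in 28.8% of all genes. Both calls were lost without the 12 h or the 24 h pair.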

How the results depend on the processing

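Counts are V1 members called, of 8. Fits that leave 1 array or 1 pair in a compared group or phase are not counted here. In late DW against 0 h, 4 rose as reported, 2 with no filter on low values and 0 with only the 2 groups compared. For αKG in late arrays 5 fell as reported, 3 with eBayes without a trend (Atp6v1a and Atp6v1e1 lost) and 4 without any 1 pair at 3, 6, 12 or 24 h. Without the time block 0 passed (7 genes of all passed there, against 663). For the late minus early αKG effect 2 passed as reported, 1 with no filter and 1 with the mean of a gene's rows. For it 0 passed without a trend, without the time block, for the slope of the αKG effect on log2 time, and without the 12 h or the 24 h pair. The cause was not tested where fewer arrays or genes, or a spread that includes time, do not give it. Quantile normalization, centring on array medians and robust eBayes kept these counts within 1.5 times, and no called value turned its direction. Over all genes, 1031 were called in late DW (115 with only the 2 groups). For αKG late 663 were called (323 without a trend, 275 to 365 without 1 pair at 3, 6, 12 or 24 h). For late minus early 94 were called (17 without a trend, 29 for the slope, 29 without the 12 h or the 24 h pair, 0 without the block). Centring on medians moved the median of all genes in late DW to -0.05 log2 and ended the call for Atp6v1c1 (adjusted p = 0.069). Every other comparison kept its count of 0 under all alternatives run.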
